A study of Mus musculus with 3 samples.

Results

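The matrix metalloproteinases (MMPs), the ADAMTS proteases and the tissue inhibitors of metalloproteinases (TIMPs) were taken from RNA-Seq gene counts by symbol: every Ensembl gene whose mouse symbol is Mmp, Adamts or Timp followed by its number, with the letter a or b allowed after an Mmp number. This gave 46 of the 46603 genes counted, made up of 23 MMP genes, 19 ADAMTS genes and 4 TIMP genes, or 42 proteases against 4 inhibitors. All but Mmp1a, which GENCODE release M21 lists as a polymorphic pseudogene, are annotated as protein-coding. The cells were KO-actin cells: β-actin knockout mouse embryonic fibroblasts (MEFs) made to express β-actin tagged with a nuclear localization signal (NLS), with the genotype label Beta-actin KO-NLS. Polyadenylated RNA from 3 libraries, replicates 1 to 3, was counted. The cells came from lines made for earlier work, and the sources used here name neither the promoter of the transgene nor the number of clones. All 3 libraries carry both the knockout and the NLS-tagged β-actin; wild-type and KO libraries were not analysed here, so levels are described within 1 condition and no change with β-actin is given. The labels do not say whether the replicates were separate cultures, so every p-value measures only the spread between these libraries, which may be technical.

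MMPs and ADAMTS proteases are zinc enzymes that cut proteins of the extracellular matrix and of the cell surface. Most MMPs are secreted as inactive precursors, while the membrane-type MMPs stay anchored on the cell, and ADAMTS proteases carry thrombospondin repeats that bind them to the matrix. TIMPs bind the active site of these enzymes and block it, and TIMP2 also takes part in the activation of the MMP2 precursor by MMP14 on the surface of fibroblasts. RNA levels give neither the amount of active enzyme nor the amount of free inhibitor.

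The libraries held 44383636 to 49932446 counts. The floor was set at 3 counts, the highest true mean that an observed 0 leaves possible by counting error, and corresponded to 0.0601 to 0.0673 CPM (counts per library after every library is brought to the same total); genes past it are called above the floor. Replicate 2 stood apart: over the 13814 genes with 10 or more counts in each library, its counts differed from those of replicates 1 and 3 by a chi-square of 11.1 and 10.6 per degree of freedom, against 3.72 between replicates 1 and 3. Fibroblast markers were above the floor for 9 of 10 genes, led by Vim at 4562 CPM, although Dcn had 0.152 CPM and Lum had 0 counts in every library. No neutrophil marker was above the floor in every library (0 of 5), and 2 of 7 macrophage, 1 of 5 epithelial, 3 of 5 endothelial, 3 of 5 chondrocyte and 1 of 5 osteoblast markers were. These were bulk samples, in which fewer cells of a type and less RNA per cell cannot be told apart.

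More than 3 counts in every library were found for 27 of the 46 members, which were 13 of 23 MMP genes, 11 of 19 ADAMTS genes and 3 of 4 TIMP genes. Over all genes counted the share was 32.6%, and over protein-coding genes it was 58.9%, so the members' share of 58.7% was close to that of protein-coding genes. A mean of at least 1 CPM was reached by 21 members, at least 10 CPM by 15 and at least 100 CPM by 6, while 8 had 0 counts in all libraries. Together the members took 0.261% of all counts. To compare levels between genes, CPM was divided by the exonic length of each gene in kilobases, with all of its annotated exons merged (CPM/kb). On this scale the order was Timp2, Timp1, Timp3, Mmp2, Mmp14, Adamts1, Mmp11, Adamts5, Mmp23 and Mmp28, and the ranges of the 3 libraries did not overlap between any of these neighbours. Further down, ranges overlapped between Mmp15 and Adamts7, between Adamts6 and Mmp9, and between Mmp9 and Adamts14.

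**Figure D1:**
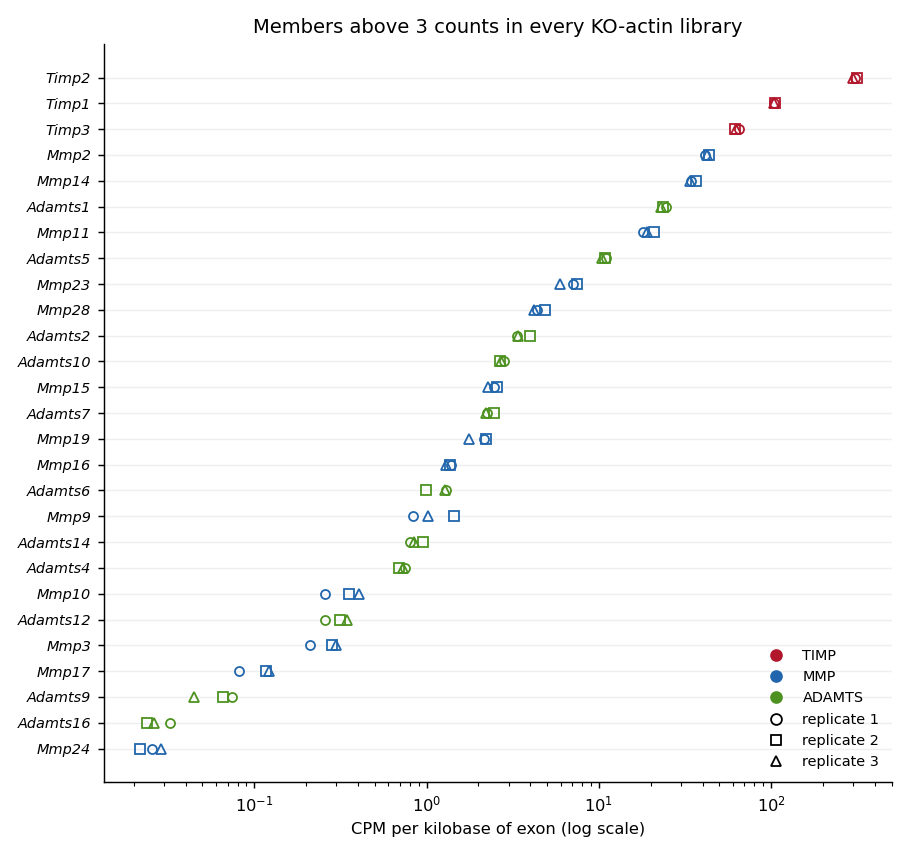
CPM per kilobase of exon (log axis) of the 27 members above 3 counts in every library, with 1 symbol per replicate and colour by family. The 3 TIMP genes lie above every protease, and the members span from 306 CPM/kb for Timp2 to 0.0253 CPM/kb for Mmp24.

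The inhibitors were led by Timp2 (chr11:118301069-118355740, GRCm38), the TIMP that assembles with MMP14 and the MMP2 precursor. Timp2 had 1197, 1221 and 1160 CPM in replicates 1, 2 and 3, averaging 1193 ± 30.7 CPM (SD, n = 3) or 306 ± 7.89 CPM/kb. Per kilobase it ranked 90 among all protein-coding genes. Timp1 (chrX:20870166-20874735), a secreted inhibitor of most soluble MMPs, had 92.6, 93.3 and 92.5 CPM in replicates 1, 2 and 3, and its short transcript placed it second per kilobase at 105 ± 0.485 CPM/kb. Its 3 values lay within 1.01-fold of each other, and the chi-square with Benjamini-Hochberg adjustment gave no call (adjusted p = 0.930). Timp3 (chr10:86300372-86349506), which binds to the matrix and is the TIMP known for inhibiting ADAMTS proteases, had 530, 500 and 511 CPM, a mean of 514 ± 15.5 CPM or 63.1 ± 1.90 CPM/kb.

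Timp3 and Timp1 exchanged places when CPM was divided by the length of the longest coding transcript, where Timp3 had 109 and Timp1 105. Timp3 lies within the synapsin gene Syn3, and 21.3% of its exonic length overlaps exons of other genes. Of the 50-base windows of its longest coding transcript, 36.3% also occur, on either strand, in transcripts of another gene, mainly Syn3. Syn3 itself had 19, 21 and 15 counts, far below the 22749 to 26489 counts of Timp3. Whether counting used the strand, and whether reads on both genes were left out, is not given in the sources used here. Reads left out in this way would be missing from both genes, so the low count of Syn3 does not settle the level of Timp3. Timp4, the fourth inhibitor, had 1, 1 and 5 counts and was not above the floor in every library. It thus took 0.00184% of the summed TIMP level per kilobase, of which Timp2 took 64.6%, Timp1 22.1% and Timp3 13.3%.

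Among the MMPs, the gelatinase Mmp2 and the membrane-type Mmp14 held 66.9% ± 0.968 of the family's summed CPM/kb (SD, n = 3). Mmp2 (chr8:92827291-92853420), which cleaves denatured collagen and basement membrane collagen, had 140, 147 and 143 CPM, a mean of 143 ± 3.52 CPM or 42.5 ± 1.05 CPM/kb. Mmp14 (chr14:54431612-54445364), the membrane-anchored activator of the MMP2 precursor and a collagenase in its own right, had 204, 219 and 203 CPM, a mean of 209 ± 8.74 CPM or 35.0 ± 1.47 CPM/kb. Which of them was higher depended on the length used: the ratio of Mmp2 to Mmp14 was 1.21 ± 0.0322 per kilobase of merged exons and 0.723 ± 0.0192 per kilobase of the longest coding transcript. Timp2 exceeded Mmp14 by 8.75 ± 0.207-fold and Mmp2 by 7.21 ± 0.206-fold in CPM/kb, and by 4.995-fold and 6.91-fold per kilobase of transcript. The other gelatinase, Mmp9, was low, with 2.96, 5.08 and 3.61 CPM from 148, 251 and 161 counts. Replicate 2 was the highest for Mmp9, and Mmp2 exceeded it by 30.3 to 49.5-fold in CPM/kb.

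Of the other membrane-type genes, Mmp15 had 13.1 ± 0.791 CPM and Mmp16 11.7 ± 0.381 CPM, whereas Mmp17 had a mean of 0.706 CPM. Mmp24 had 6, 5 and 6 counts, and Mmp25 had 7, 4 and 1. In this class 5 of 6 genes were above the floor, yet Mmp14 stood more than an order of magnitude above the next in CPM/kb, since Mmp15 had 2.42 ± 0.147 CPM/kb. Mmp11, or stromelysin 3, which is activated inside the cell by furin, was the third MMP at 50.1, 58.0 and 53.0 CPM, a mean of 53.7 ± 3.99 CPM or 19.3 ± 1.44 CPM/kb. Mmp23, a small MMP without the hemopexin domain, had 16.6, 17.6 and 14.0 CPM. Mmp28, or epilysin, had 17.0, 18.9 and 16.3 CPM. Mmp19 had 7.57, 7.79 and 6.24 CPM, but 28.3% of its exonic length overlaps exons of other genes, among them Tmem198b at 29.0 CPM. For Mmp28 that share was 12.0%, shared with 1700020L24Rik at 2.44 CPM. Mmp21 had 2, 0 and 0 counts.

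The collagenases, the matrilysin gene and the metalloelastase gene were at or near 0. Mmp1a and Mmp1b, the mouse counterparts of interstitial collagenase, had 0 counts in all libraries, Mmp13 (collagenase 3) had 1, 1 and 1, and Mmp8 (neutrophil collagenase) had 1, 0 and 0. None of the 4 collagenases was above the floor. Mmp7 (matrilysin) and Mmp12 (macrophage metalloelastase) also had 0 counts throughout, as did Mmp20 and Mmp27. These 8 genes lie with the stromelysins Mmp3 and Mmp10 in a run of 10 MMP genes at chr9:7272514-7699585 (GRCm38), 427072 bases that hold no other protein-coding gene. In chromosome order they are Mmp13, Mmp12, Mmp1b, Mmp3, Mmp1a, Mmp10, Mmp8, Mmp27, Mmp20 and Mmp7. The whole run held 155 counts over the 3 libraries, of which 68 fell on Mmp3 and 83 on Mmp10.

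Mmp3, a stromelysin that cleaves proteoglycans and activates other MMPs, had 19, 25 and 24 counts, a mean of 0.475 ± 0.0835 CPM. Mmp10, a close relative, had 22, 30 and 31 counts, a mean of 0.581 ± 0.130 CPM. The ratio of Mmp10 to Mmp3 was 1.27 ± 0.0715 in CPM/kb, from only 83 and 68 counts over the 3 libraries. Their ranges overlapped, at 0.256 to 0.404 CPM/kb for Mmp10 and 0.211 to 0.299 for Mmp3, so the genes are not said to differ. The range of Adamts12, which lay between them in that order, overlapped both. Of the 50-base windows of the Mmp10 transcript, 8.37% also occur in Mmp3, and how reads matching both were counted is not given in the sources used here. The nearest protein-coding gene on each side of the run was well expressed: Dcun1d5, 64309 bases before it, had 68.5 ± 3.88 CPM, and Tmem123, 64456 bases after it, had 185 ± 5.24 CPM. Beyond Tmem123, Birc2 followed at 21.1 CPM and Birc3 at 6.19 CPM. On the other side, Dync2h1, 88068 bases before the run, had 11.0 CPM, and Ddi1, 1002668 bases before it, had 0 CPM.

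**Figure D2:**
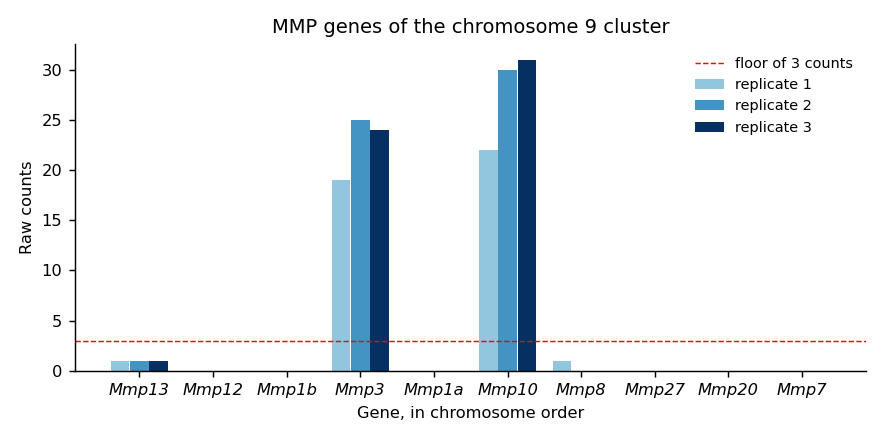
Raw counts in each library (bars, by replicate) of the 10 MMP genes of the chromosome 9 run, drawn in chromosome order and not to distance, with the floor of 3 counts as a dashed line. Mmp3 and Mmp10 are above the floor in every library, with 19 to 31 counts, and the other 8 genes have at most 1 count.

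The sequence before the start of these genes was examined next. RefSeq promoter windows (GRCm38.p6) were matched for 32 of the 46 members, 35 windows in all, and the 250 bases before each start were searched for the AP-1 heptamer TGAGTCA on both strands, where it reads TGACTCA on the other. AP-1 is the Fos and Jun transcription factor, and the promoters of some MMP genes, though not of all, are its textbook targets. The heptamer was found for 7 of the 32 matched members (21.9%), against 4.78% of protein-coding genes and 4.46% of all 32851 windows. The 7 were Mmp1a, Mmp1b, Mmp3, Mmp7, Mmp10, Mmp12 and Mmp13, all of them in the chromosome 9 run. Every gene of the run had a window, whereas members outside it, among them Mmp2, Mmp9 and Adamts5, had none and were not searched. Whether the heptamer is confined to the run is therefore not known. TATAAA within the last 50 bases was found for 6 of these 7 and for Adamts1, against 2.63% of all windows. A match describes the letters alone and says nothing of binding in these cells. The last 100 bases before the start are shown for 5 genes of the run, 5′ to 3′ on the gene's strand, with the heptamer and TATAAA in capitals.
Mmp13 (chr9:7272414-7272513, plus strand): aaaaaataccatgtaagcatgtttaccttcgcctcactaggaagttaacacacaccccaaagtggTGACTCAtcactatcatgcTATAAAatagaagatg
Mmp3 (chr9:7445722-7445821, plus strand): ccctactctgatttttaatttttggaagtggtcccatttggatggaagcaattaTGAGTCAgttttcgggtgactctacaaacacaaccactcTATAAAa
Mmp1a (chr9:7464041-7464140, plus strand): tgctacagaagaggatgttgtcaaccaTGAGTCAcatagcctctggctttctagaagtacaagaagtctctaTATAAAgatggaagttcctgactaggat
Mmp10 (chr9:7502242-7502341, plus strand): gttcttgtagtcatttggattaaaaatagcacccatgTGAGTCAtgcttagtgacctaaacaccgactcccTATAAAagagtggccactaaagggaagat
Mmp7 (chr9:7691990-7692089, plus strand): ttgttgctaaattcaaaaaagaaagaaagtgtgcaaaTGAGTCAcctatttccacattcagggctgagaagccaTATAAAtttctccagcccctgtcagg
In these 5 windows the heptamer started 35 to 73 bases before the transcription start and TATAAA 7 to 29 bases before it. Of the 5 genes, Mmp3 and Mmp10 were above the floor, while Mmp13 had 1 count per library and Mmp1a and Mmp7 had 0, so promoters with both elements were found at counted and at uncounted genes alike.

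CpG dinucleotides, which are frequent in the promoters of broadly expressed genes, were counted in the same windows. The last 100 bases before the start of a highly counted membrane-type MMP and a highly counted ADAMTS gene are shown for contrast with the run above, with each CG in capitals.
Mmp14 (chr14:54431498-54431597, plus strand): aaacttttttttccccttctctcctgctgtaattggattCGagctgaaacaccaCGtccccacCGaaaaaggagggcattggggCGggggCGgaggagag
Adamts1 (chr16:85803114-85803213, minus strand): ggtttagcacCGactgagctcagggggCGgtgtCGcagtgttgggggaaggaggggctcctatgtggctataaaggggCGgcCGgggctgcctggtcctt
Both hold 5 CpG in these 100 bases, against at most 1 in each of the 5 sequences above. Over the full 250 bases, the 16 matched members above the floor had a median of 15 CpG and the 16 others a median of 2. Among protein-coding genes the medians were 16 and 3, so the members showed the split that other genes showed. The GC content had medians of 63.4% and 49.6% in the members and of 60.0% and 48.1% in protein-coding genes. Exceptions ran both ways. Adamts3 and Adamts20 had 35 and 32 CpG with at most 1 count in any library, while Timp1 had 6 CpG at 92.8 CPM and Mmp10 had 1 CpG at 0.581 CPM. The 7 members with the heptamer had a median of 1 CpG, and 2 of the 7 were above the floor, against 50.7% of protein-coding genes with the heptamer.

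**Figure D3:**
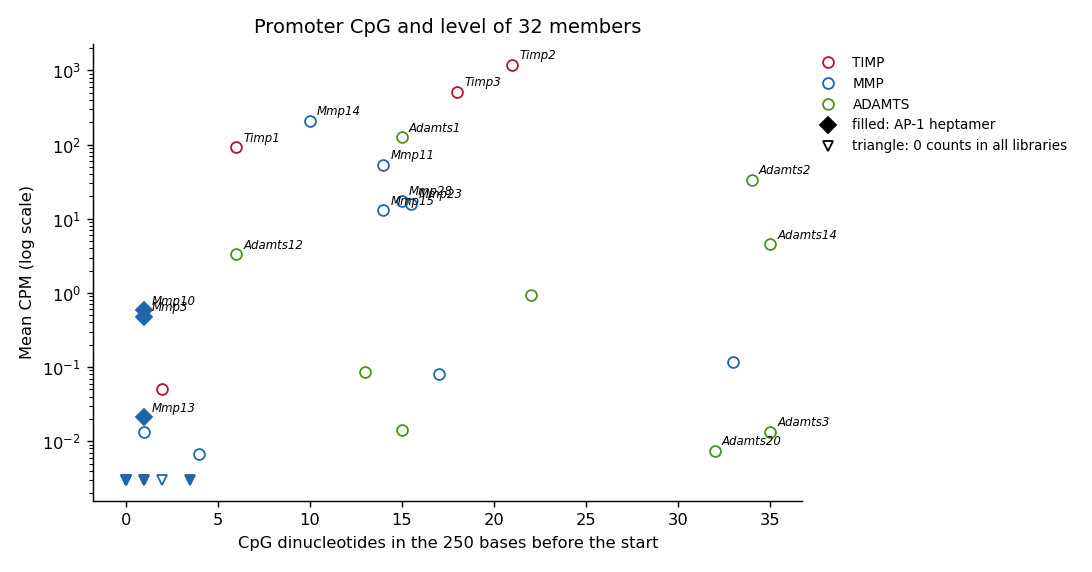
Mean CPM (log axis) against the number of CpG dinucleotides in the 250 bases before the RefSeq start, 1 point per matched member (n = 32, averaged over starts), coloured by family. Filled symbols hold the AP-1 heptamer and sit at few CpG, and triangles mark genes at 0 counts in all libraries, drawn at the foot of the axis.

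The ADAMTS proteases were led by Adamts1 and Adamts5, which cleave the large proteoglycans versican and aggrecan. Adamts1 had 130, 125 and 122 CPM, a mean of 126 ± 4.20 CPM or 23.7 ± 0.791 CPM/kb. Adamts5 had 119, 117 and 112 CPM, a mean of 116 ± 3.54 CPM or 10.8 ± 0.328 CPM/kb. The CPM of both thus lay close together, while Adamts1 was 2.21 ± 0.0363-fold higher per kilobase because the annotated exons of Adamts5 are longer. They are neighbours on chromosome 16, at chr16:85793827-85803113 and chr16:85856173-85901828, with 53059 bases and no protein-coding gene between them. They took 74.5% ± 0.792 of the summed ADAMTS CPM/kb. Another adjacent pair, Adamts15 and Adamts8 on chromosome 9, lay 20109 bases apart and had at most 2 counts in any library.

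Of the other proteoglycan-cleaving members, Adamts4 had 3.49 ± 0.136 CPM and Adamts9 0.929 ± 0.231 CPM. Adamts20 had 0, 0 and 1 counts. Among the procollagen N-proteinases, which trim fibrillar collagens, Adamts2 had 31.3, 37.2 and 31.9 CPM and Adamts14 had 4.51 ± 0.414 CPM, a ratio of 4.12 ± 0.0635 in CPM/kb. Adamts3, the third of this class, had 1, 1 and 0 counts. Adamts7 had 14.5 ± 0.824 CPM and Adamts12 3.34 ± 0.492 CPM; both cleave cartilage oligomeric matrix protein, whose gene Comp had 0.646 CPM. Adamts10, which is tied to fibrillin microfibrils, had 22.5 ± 0.650 CPM, and its relative Adamts6 had 10.1, 7.75 and 9.99 CPM, with replicate 2 the lowest. Adamts13, which cleaves von Willebrand factor, and Adamts19 had 0 counts in all libraries. Adamts16 had 11, 8 and 8 counts, Adamts17 had 3, 3 and 6, and Adamts18 had 1, 0 and 1.

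Proteases were then set against inhibitors as sums of CPM/kb in each library. The 4 TIMP genes summed to 474 ± 8.04 CPM/kb and the 42 proteases to 162 ± 5.52 CPM/kb (SD, n = 3), so the inhibitors were 2.92-fold higher, from 2.85 to 2.98-fold over the libraries. The log2 ratio of proteases to TIMPs was -1.58, -1.51 and -1.56 in replicates 1, 2 and 3, far from 0 against an SD of 0.03. A two-sided exact sign-flip permutation test gave p = 0.25, the smallest that 3 libraries allow. The 23 MMP genes alone summed to 116 ± 5.18 CPM/kb and the 19 ADAMTS genes to 46.3 ± 1.11 CPM/kb. Without division by length the ratio was -1.15, and per kilobase of transcript it was -1.33.

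The size of this difference rested on Timp2. Per kilobase of merged exons, without Timp2 the other 3 inhibitors summed to 168 ± 1.60 CPM/kb, and the log2 ratio of proteases to these was -0.08, 0.02 and -0.08, a mean of -0.05 against an SD of 0.06, with a sign that changed between libraries. In CPM without division by length, proteases at 811 ± 24.5 exceeded the inhibitors without Timp2 at 607 ± 15.2 in 3 of 3 libraries, by 0.37, 0.50 and 0.39 on the log2 scale, so the order of these sums depended on the length. Without Mmp2, the highest protease per kilobase of merged exons, the ratio was -1.99, and without Mmp14, the highest in CPM, it was -1.90. Leaving out a protease can only lower this ratio. The protease sum was itself carried by few genes, since Mmp2, Mmp14, Adamts1, Mmp11 and Adamts5 held 81.0% ± 0.583 of it. Timp3 exceeded Adamts1 by 2.66 ± 0.0578-fold and Adamts5 by 5.86 ± 0.202-fold in CPM/kb. Sums of RNA count each gene alike and take no account of which TIMP binds which protease.

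**Figure D4:**
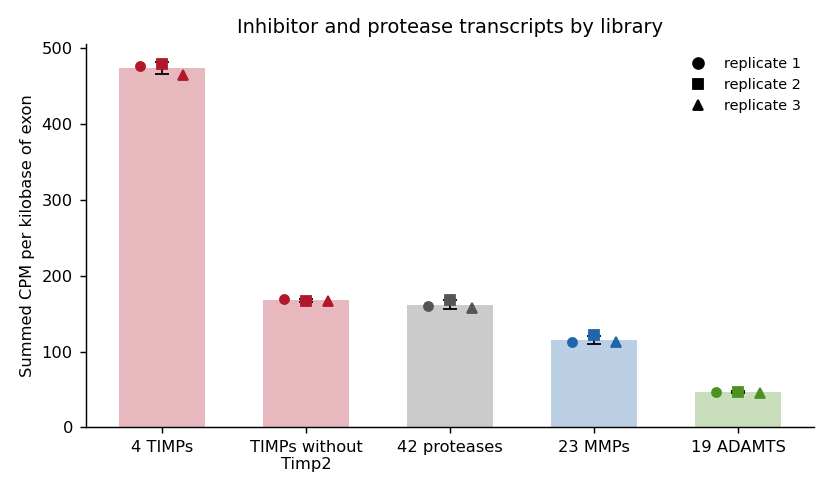
Summed CPM per kilobase of exon for all TIMP genes, the TIMP genes without Timp2, all proteases, the MMP genes and the ADAMTS genes. Bars are means, error bars the SD of the 3 libraries and symbols the libraries; the TIMP sum of 474 stands above the protease sum of 162, and the TIMP sum without Timp2, 168, lies beside it.

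Variation between the 3 libraries was tested for the 25 members with at least 10 counts in every library, by a chi-square of the counts against library sizes scaled with edgeR's TMM, adjusted by Benjamini-Hochberg over 13814 genes. It called 13 of the 25 members (52.0%) against 43.8% of all genes tested, so with all 3 libraries the share was near the background. Without replicate 2 it called 5 of 25 members, a larger share than the 12.4% of all genes. The shares were not compared by a test. The 5 were Timp2, Timp3, Adamts1, Adamts5 and Mmp23. Replicate 2 was the highest library in 9 of the 13 and the lowest in 2, Timp3 and Adamts6. The same count over all genes called is not given here. The median deviation of replicate 2 from the mean of replicates 1 and 3, in log2 CPM, was 0.115 over the 25 members. Over all genes tested it was -0.00075. Most of the differences were small. The highest library exceeded the lowest by 1.05-fold for Timp2 (adjusted p = 2.8e-15) and for Mmp2 (adjusted p = 0.0336) and by 1.08-fold for Mmp14 (adjusted p = 2.2e-07).

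Mmp9 had the widest range among the 13, 1.71-fold between replicates 2 and 1 (adjusted p = 2.7e-06), and without replicate 2 the call was lost (adjusted p = 0.263). Adamts6 followed with 1.31-fold, also lost without replicate 2 (adjusted p = 0.922), then Mmp23 with 1.26-fold, Mmp19 with 1.25-fold and Adamts2 with 1.19-fold. The deviation of replicate 2 moved with GC content. The 12 tested members of lower GC, up to 53.7%, had a median deviation of 0.04 on the log2 scale from the mean of the other libraries, and the 13 of higher GC one of 0.17. Over the 25 members Spearman's rho between GC content and this deviation was 0.39, and over 13770 genes it was 0.50; genes share the libraries and are not independent. After scaling within 50 bins of GC content 12 of 25 members were called, a larger share than the 28.9% of genes, again without a test of the shares. Mmp2 and Mmp28 were lost and Adamts10 was gained. The other calls stayed under this scaling. In the chi-square the adjusted p of Timp2 went from 2.8e-15 to 2.8e-05 and that of Adamts5 from 0.0188 to 4.8e-06. How much of the variation in these calls goes with GC content was not tested.

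**Figure D5:**
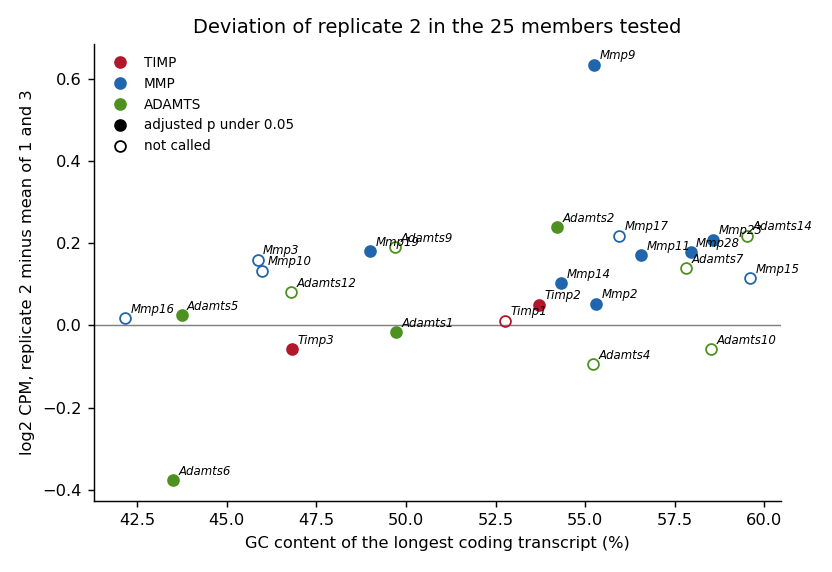
Deviation of replicate 2 from the mean of replicates 1 and 3 (log2 CPM) against the GC content of the longest coding transcript, 1 point per tested member (n = 25), filled where the chi-square called it. Mmp9 lies at 0.63 and Adamts6 is the lowest point.

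Genes that work with these proteases were counted from lists of activators, other inhibitors, ADAMTS-like proteins and substrates. Of 8 activator genes, 6 were above the floor: Furin, the convertase that activates MMP14 and MMP11 precursors, had 105 ± 5.96 CPM, the urokinase receptor gene Plaur 106 ± 2.82, Plau 61.2 ± 0.607 and Plat 42.04 ± 1.99. Plg, which encodes the plasminogen that the products of Plau and Plat act on, had 0 counts in all libraries. Of the activators tested for variation between libraries 3 of 6 were called, near the 43.8% of all genes tested. Among other inhibitors and clearance genes, Lrp1, an endocytic receptor that clears proteases and their complexes, had 375 ± 9.06 CPM. Reck, a membrane-anchored inhibitor of MMPs, had 4.77 ± 0.208 CPM. Of 6 ADAMTS-like genes, whose products lack the protease domain, 5 were above the floor, with Adamtsl5 at 88.7 ± 5.64 CPM and Adamtsl4 at 33.9 ± 2.43.

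Of 12 substrate genes, 10 were above the floor. Col1a1 had 4057 ± 252 CPM and Fn1 3578 ± 15.02 CPM, so the main collagen and fibronectin of the fibroblast matrix were counted while every collagenase of the chromosome 9 run was at or below 1 count per library. Col3a1 had 268 ± 6.05 CPM. Of the proteoglycans cut by Adamts1 and Adamts5, versican (Vcan) had 32.3 ± 1.98 CPM whereas aggrecan (Acan) had 1, 0 and 1 counts. Fbn1 had 67.3 ± 3.14 CPM and Fbn2 had 0 counts.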

How the data were processed

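RNA-Seq of polyadenylated RNA from 3 KO-actin libraries was used. For each library the authors deposited raw, unnormalized read counts by Ensembl identifier. The submitters' processing notes name Trimmomatic, FastQC, HISAT2 and HTSeq and the builds mm10 and GRCm38, with no versions. The strand setting, the treatment of reads on overlapping genes and the annotation are not given in the sources used here; these can change counts of overlapping or similar genes. The study's methods state DESeq2 with default settings between conditions, which 1 condition does not allow.

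GENCODE release M21 (GRCm38) gave coordinates, exonic lengths and GC content, and RefSeq (GRCm38.p6) gave promoter windows. Symbols matched 46005 of 46603 identifiers. TMM factors were estimated in edgeR 4.0.16 (R 4.3.3) from genes with 10 or more counts in each library. CPM was computed with no pseudocount and divided by merged exonic length for levels between genes. Variation of a gene's 3 counts was tested by chi-square (2 degrees of freedom, Benjamini-Hochberg threshold 0.05). The protease to TIMP ratio was tested by exact permutation of signs. The floor of 3 counts covers counting error only. Tested on simulated data (13814 genes, 200 changed by 1.5-fold in replicate 2), the chi-square called 171 of the 200 and 10 unchanged genes. The simulated counts otherwise varied by counting error alone. The real libraries varied more, with 3.72 to 11.1 per degree of freedom between pairs, so the simulation does not tell how specific the calls are here. Members with a mean of at least 1 CPM were named with values, the others by counts. The members and lists were chosen with earlier results of these data known. Alternatives were DESeq2 1.42.0 size factors, total counts, scaling within 50 GC bins, other filters, another length, MMP or ADAMTS genes alone, and leaving out each replicate or the highest gene. The ratios without Mmp14, and without Timp2 on the other length scales, were added after seeing the data. Scripts ran under Python 3.11.15 with scipy 1.17.1, numpy 2.4.6 and pandas 2.3.3; matplotlib 3.10.9 drew the figures. The count over the list of other inhibitors and clearance genes is not reported here.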

Additional observations from a re-analysis of the deposited data

How the results depend on the processing

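The count of members above the floor lay between 21 and 32 under other floors and left-out replicates, against 27. The mean log2 ratio of proteases to TIMPs was -1.15 without division by length and -1.33 per kilobase of transcript. Leaving out proteases can only lower it. The runs for ADAMTS genes alone (-3.35), MMP genes alone, without Mmp2 and without Mmp14 thus could not turn its sign. Without Timp2 it was -0.05 per kilobase of merged exons and -0.01 per kilobase of transcript, each within 1 SD of 0. In CPM without division by length it was 0.42 without Timp2. This ratio, that without Timp2 per kilobase of transcript and that without Mmp14 were chosen after seeing the data. With all members kept, leaving out 1 replicate gave -1.57 to -1.53. The number of members varying beyond counting error was 12 or 13 under other scalings and filters, against 13, and 5 to 9 with 1 replicate left out, the lowest without replicate 2. Per kilobase of the longest coding transcript, 3 of the first 10 members kept their place in the order, and 9 of the 10 were shared. Over 21 named members, 0 of 42 mean levels under total counts or DESeq2 size factors moved by more than 1 SD. The TMM factors were 0.996 to 1.004, so little movement was possible, and the largest change was 0.0466%. Leaving out 1 replicate changed a mean level by up to 15.4%. No paired analysis was possible because all libraries belong to 1 condition. With 3 libraries no permutation p below 0.25 can be reached, and genes near the floor cannot be told from 0 at this depth.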
